A study of Saccharomyces cerevisiae with 4 samples.

Results

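BNS1 (YGR230W) and SPO12 (YHR152W) are paralogous genes of Saccharomyces cerevisiae, and their mRNA levels were followed in a wild-type strain and in a strain lacking both SIR2 and HST1. The pair was taken by systematic name, 2 of the 6690 open reading frames listed for each library. Each genotype was sequenced as 2 libraries, which the series calls technical replicates, so the p-values below measure the spread between libraries and not between cultures. The wild-type strain was MAT alpha with can1-100, his3-11, leu2-3,112, trp1-1, ura3-1, a deletion of LYS2 and a replaced HMR locus written hmr::ura3, and its label also lists GAL. The deletion strain shared these alleles apart from the GAL entry, with the HMR allele written hmrD::ura3, and added hst1D::KanMX and sir2D::TRP1. Each genotype was 1 strain, so the loss of SIR2, the loss of HST1 and the markers that replaced them cannot be told apart. Cultures grew exponentially in the rich glucose medium YPD at 30 degrees and were harvested at an OD of 1, conditions in which haploid alpha cells divide by mitosis and do not sporulate.

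Spo12 is a small phosphoprotein of the nucleolus and nucleus. It acts in the FEAR network (named for the early anaphase release of Cdc14), in which the separase Esp1, the polo kinase Cdc5, the spindle protein Slk19 and Spo12 promote the first release of the phosphatase Cdc14 from its nucleolar inhibitor Net1, and Spo12 binds the rDNA fork-block protein Fob1. The mitotic exit network then keeps Cdc14 released, and Cdc14 opposes cyclin-dependent kinase so that cells leave mitosis. In meiosis, cells without SPO12 complete a single division and make diploid spores, and extra BNS1, whose name stands for bypasses need for Spo12, relieves that defect. Sir2 is held at the rDNA in the same complex as Net1 and Cdc14, and Hst1 is the partner of Sum1, a repressor that binds upstream of middle sporulation genes.

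The sequences upstream of the paralogs are shown because motif matches in the 300 bases before the start codon differ between them. Some of these differences do not hold over the whole upstream gaps. The 300 bases before each start codon were read from the RefSeq R64 assembly, in which BNS1 lies on chromosome VII and SPO12 on chromosome VIII, both on the plus strand, and capitals mark every motif match. The genome build behind the deposited values is not given in the sources used here, so no coordinates are given.
BNS1: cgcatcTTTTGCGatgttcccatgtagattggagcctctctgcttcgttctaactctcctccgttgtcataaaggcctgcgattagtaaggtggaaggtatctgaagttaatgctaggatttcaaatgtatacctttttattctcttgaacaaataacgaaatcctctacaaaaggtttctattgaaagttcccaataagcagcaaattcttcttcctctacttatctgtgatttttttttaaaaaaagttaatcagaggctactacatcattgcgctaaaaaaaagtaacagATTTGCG
SPO12: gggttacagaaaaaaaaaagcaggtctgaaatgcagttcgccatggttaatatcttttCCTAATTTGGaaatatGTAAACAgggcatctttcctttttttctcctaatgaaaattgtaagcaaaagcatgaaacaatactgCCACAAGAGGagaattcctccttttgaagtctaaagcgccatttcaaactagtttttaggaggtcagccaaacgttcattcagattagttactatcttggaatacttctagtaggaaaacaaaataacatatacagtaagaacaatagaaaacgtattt

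The searched motifs, on both strands, were the core of the middle sporulation element bound by Ndt80 and Sum1 (CACAAAA and its form CACAAAT, or CGCAAAA and its form CGCAAAT), the paired half-sites of Mcm1 (CC and GG with 6 bases between them, the same on both strands), the forkhead motif (GTAAACA and its form GTAAATA, or ATAAACA and its form ATAAATA) and the core of URS1 (GCCGCC). The BNS1 window held 2 matches to the middle sporulation core, at -294 to -288 (TTTTGCG on the gene's strand) and at -7 to -1 (ATTTGCG), counted back from the base before the start codon as -1. The SPO12 window held none of these, and neither did the whole 585 bases up to its upstream neighbour. A core match was found in 19.9% of 6007 windows of 300 bases and in 34.8% of 6005 upstream windows of 585 bases. The windows behind all shares here had a fixed length and did not stop at neighbouring genes, so they could include coding sequence. The upstream gaps of BNS1 and SPO12 end at the neighbouring gene. The SPO12 window held 2 Mcm1 half-site pairs and 1 forkhead match. Another Mcm1 pair, CCCATTGTGG, lay farther up in its gap at -350 to -341. An Mcm1 pair was found in 55.8% of the 585-base windows. The pair CCTAATTTGG at -242 to -233 ended 6 bases before the forkhead match GTAAACA at -226 to -220, and no matches overlapped. Mcm1 pairs were present in 28.7% of windows and forkhead matches in 42.5%, while both within 10 bases of each other, a spacing chosen after the SPO12 window was seen, occurred in 1.2%. No Mcm1, forkhead or URS1 match lay in the BNS1 window. Farther up, within the 994 bases to its neighbour, BNS1 had a forkhead match, ATAAATA at -404 to -398, between Mcm1 pairs at -420 to -411 and -388 to -379. Such an adjacent combination occurred in 3.68% of 6002 upstream windows of that length. URS1 cores were found in 5.21% of the 300-base windows. Neither upstream gap held a URS1 core, beside 11.2% of 585-base and 18.3% of 994-base windows that did. These matches describe letters in the reference and are not measured binding sites.

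**Figure D1:**
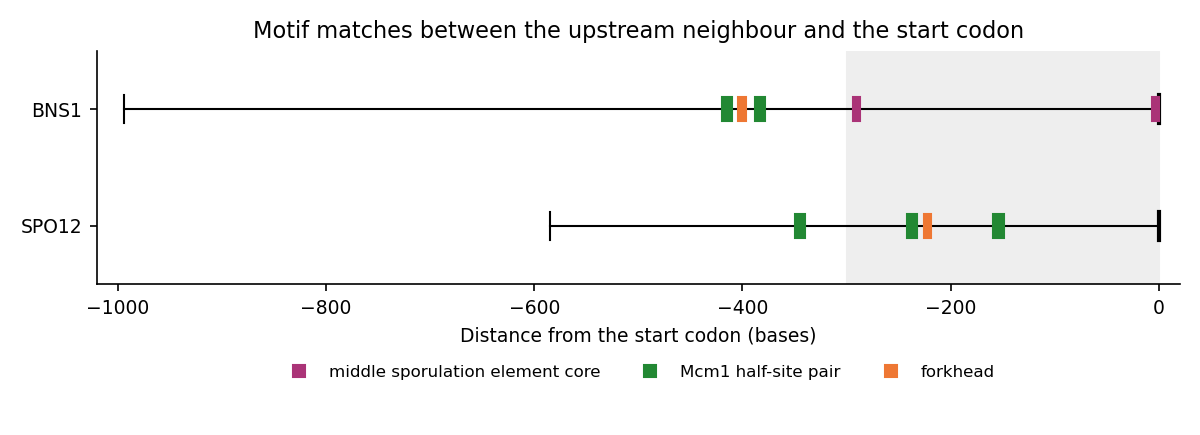
Motif matches (coloured boxes) along the bases from the upstream neighbouring gene (left tick) to the start codon (thick tick, 0), with the 300 bases printed in the text shaded. BNS1 carries 2 middle sporulation cores inside the shaded window and its Mcm1 and forkhead matches outside it, whereas SPO12 has Mcm1 and forkhead matches and no such core.

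The coding regions of the paralogs share little sequence, which bears on whether reads of one could be assigned to the other. The R64 coding lengths were 414 bases for BNS1 and 522 for SPO12, or 137 and 173 residues. A local alignment covered 77 residues, of which 33 (42.9%) were identical, and the underlying bases were identical at 54.5%. The most alike gap-free stretch of 90 coding bases is shown here with the differing bases in capitals, coding bases 247 to 336 of BNS1 and 331 to 420 of SPO12, where 61 bases are the same and 29 differ.
BNS1: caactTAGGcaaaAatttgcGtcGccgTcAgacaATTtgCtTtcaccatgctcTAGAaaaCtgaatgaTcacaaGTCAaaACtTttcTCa
SPO12: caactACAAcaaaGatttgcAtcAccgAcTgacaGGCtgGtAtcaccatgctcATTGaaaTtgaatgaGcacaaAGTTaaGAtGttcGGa
The longest run shared base for base was 11 bases, and blastn found no alignment between the coding sequences of the paralogs. For SPO12 it found short alignments of 60 and 33 bases to 2 other coding sequences (81.7% and 90.9% identity), and for BNS1 none.

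In wild-type cells SPO12 was the more abundant transcript of the pair. BNS1 stood at 32.7 and 35.2 FPKM (a level scaled to transcript length and sequencing depth) in wild-type replicates 1 and 2, while SPO12 stood at 105 and 113 FPKM. SPO12 was thus above BNS1 by 3.23 and 3.21 times in these libraries, per length of transcript. Among the 6370 genes with enough signal to test, SPO12 was above 73.4% and 74.7% of genes in the wild-type libraries and BNS1 above 43.9% and 46.4%.

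BNS1 rose in the strain lacking SIR2 and HST1. Its level was 64.9 and 51.4 FPKM in deletion replicates 1 and 2, and both values lay above both wild-type values, as did those of 30.5% of tested genes. The wild-type mean was 33.9 ± 1.78 FPKM and the deletion mean 58.1 ± 9.54 (± SD, n = 2 each), a ratio of 1.71. On the log2(FPKM + 1) scale the difference was 0.75 (SE 0.13, 95% interval 0.42 to 1.08, limma adjusted p = 0.0336 over all tested genes). Over all tested genes 6.75% were higher and 2.79% lower by the same rule, 430 and 178 genes, so 70.7% of calls were higher. After quantile normalization that share was 54.7%, and after scaling each library to the same FPKM sum it was 44.2%, and BNS1 was called higher under both (log2 differences 0.73 and 0.64). Over all 6370 tested genes, 335 rose further than BNS1. Among the 430 genes called higher its rise was modest, as 254 rose further, and the median log2 difference of the 430 was 0.95. The deletion libraries differed by 0.33 in log2 for BNS1, and 7.63% of tested genes differed more between these libraries. The call was lost without deletion replicate 1 (log2 difference 0.59, limma adjusted p = 0.061), without wild-type replicate 1 (0.70, adjusted p = 0.0564) and without the filter on low values (adjusted p = 0.0557), while the difference stayed between 0.59 and 0.92 over all 14 alternatives.

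SPO12 did not pass the test and its groups overlapped. Its level was 111 and 107 FPKM in deletion replicates 1 and 2, between the lower and the higher wild-type value. The wild-type mean was 109 ± 5.27 FPKM and the deletion mean 109 ± 3.48 (± SD, n = 2 each). The log2 difference was -0.001 with a 95% interval of -0.17 to 0.16 (limma adjusted p = 0.994), and it stayed between -0.072 and 0.048 over the 14 alternatives. Only 16 of the 6370 tested genes had a smaller absolute difference.

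**Figure D2:**
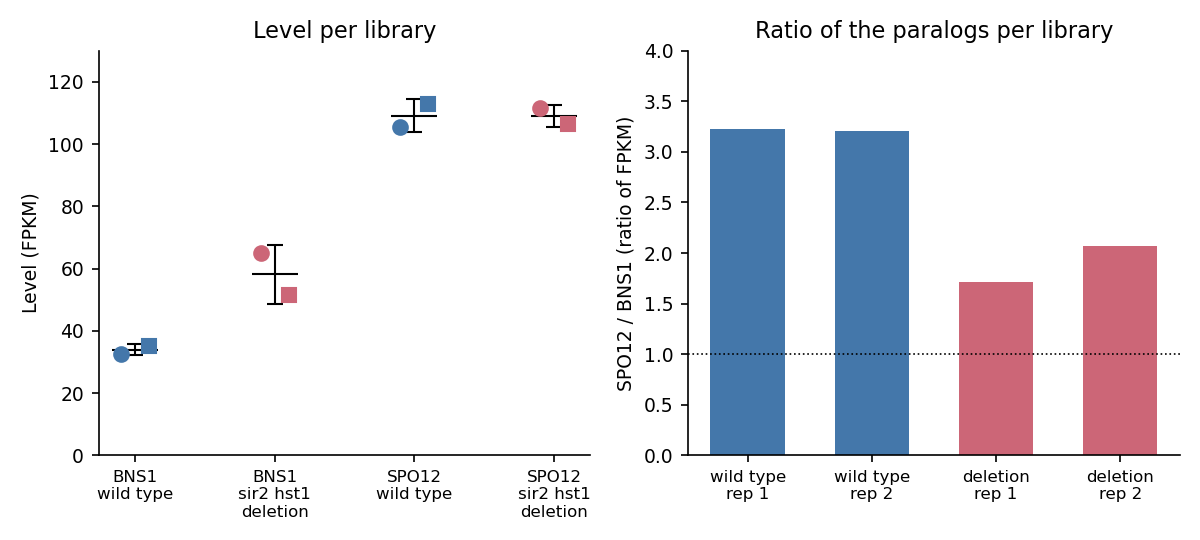
Left, FPKM of each paralog in each library (circle, replicate 1; square, replicate 2) with the mean and SD as bars; right, the SPO12 to BNS1 ratio of FPKM in each library, with the dotted line at equal levels. BNS1 is higher in both deletion libraries (51.4 and 64.9 FPKM) than in both wild-type libraries, SPO12 stays between 105 and 113 FPKM, and their ratio is 3.23 and 3.21 in wild type and 1.72 and 2.07 in the deletion libraries.

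BNS1 made up a larger share of the pair in both deletion libraries. SPO12 exceeded BNS1 by 1.72 and 2.07 times in deletion replicates 1 and 2, still the more abundant of the pair in every library. BNS1 supplied 23.7% and 23.8% of the summed FPKM of the pair in the wild-type libraries and 36.8% and 32.5% in the deletion libraries. The log2 ratio of BNS1 to SPO12 was -1.66 ± 0.005 over the wild-type libraries and -0.91 ± 0.19 over the deletion libraries (mean ± SD, n = 2 each), a difference of 0.75. The ratios of the genotypes did not overlap, but an exact two-sided permutation test of 2 against 2 libraries cannot give less than p = 0.333, which is what it gave. The summed level of the pair was 138 and 148 FPKM in the wild-type libraries against 176 and 158 in the deletion libraries.

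The genotype labels were checked on the deleted genes, which were listed at 0 FPKM in both deletion libraries. In the wild-type libraries SIR2 had 24.3 and 23.8 FPKM, and HST1 had 58.2 and 57.8. FPKM summed to between 3419038 and 3662426 per library, with medians from 36.9 to 37.3. Read totals are not part of the deposited values, so the number of reads behind BNS1 and SPO12 is unknown. Steps among the lowest values put the other libraries at 77.5% to 89.1% of the depth of wild-type replicate 1. This is a rough estimate from 56 to 75 low genes per library, of which 17.9% to 26.6% fell on steps.

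Among the other genes of the FEAR network, SLK19 was the 1 of 11 that passed, and it rose, beside 6.75% of all tested genes called higher. Before adjustment 3 of the 11 were higher and 1 lower at p under 0.05 (limma), beside 30.2% of all tested genes in either direction. SLK19 went from 15.4 and 16.4 FPKM to 21.7 and 20.3 (log2 difference 0.38, limma adjusted p = 0.0493), close to the threshold, and passed under 3 of the 14 alternatives. Without any 1 library its adjusted p lay between 0.0934 and 0.184. CDC5, the polo kinase gene, had 21.9 and 22.2 FPKM in the wild-type libraries against 27.8 and 26.3 in the deletion libraries (log2 difference 0.28, adjusted p = 0.0662). The separase gene ESP1 averaged 7.73 and 8.5 FPKM in wild type and deletion. NET1, which encodes the anchor and inhibitor of Cdc14, averaged 22.7 and 23.0 FPKM, and CDC14 itself averaged 43.5 and 40.6. FOB1, whose product binds Spo12, averaged 18.3 and 19.9 FPKM. None of these 5 genes passed. CDC55, the regulatory subunit of the phosphatase PP2A that opposes Cdc14 release, averaged 44.0 and 35.4 FPKM (adjusted p = 0.0698). CDC5 was called under 1 of the 14 alternatives and CDC55 under 2. The median log2 difference of the 11 genes was 0.07, beside -0.005 over all tested genes.

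No gene of the mitotic exit network passed among 11, beside 9.54% of all tested genes called in either direction (limma). Before adjustment 1 was higher and 3 were lower at p under 0.05, beside 30.2% of all tested genes in either direction. The median log2 difference of the 11 was -0.04. The largest difference was in TEM1, the GTPase gene at the head of the network, with 27.1 and 33.5 FPKM in the wild-type libraries against 21.8 and 20.6 in the deletion libraries (log2 difference -0.49, adjusted p = 0.0725), and it was called lower under 3 of the 14 alternatives (lowest adjusted p 0.0226). The kinase gene CDC15 was called lower after quantile normalization (adjusted p = 0.0377), and BFA1, a checkpoint gene that holds Tem1 inactive, was called higher without the trend (0.0484). The list of Cdc14 targets and anaphase-promoting complex activators had 1 of 5 higher (limma), beside 6.75% of all tested genes. That gene was AMA1, the meiosis-specific activator, which went from 1.19 and 1.23 FPKM to 4.66 and 4.56 (log2 difference 1.34, limma adjusted p = 0.0097). AMA1 lost the call without deletion replicate 1 (adjusted p = 0.0862) or 2 (0.0826) and after quantile normalization (0.0508). The mitotic activators CDC20 (18.0 and 15.8 FPKM on average in wild type and deletion) and CDH1 (18.7 and 17.0) and the kinase inhibitor gene SIC1 (50.5 and 45.5) did not pass.

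Of 11 other genes that steer the meiotic divisions, 1 was higher and 0 were lower (limma), beside 6.75% and 2.79% of all tested genes. Before adjustment 4 were higher and 0 lower at p under 0.05, beside 30.2% of all tested genes in either direction. MAM1, the meiosis-specific monopolin subunit that joins sister kinetochores in meiosis I, went from 1.42 and 2.33 FPKM to 58.5 and 51.4 (log2 difference 4.30, limma adjusted p = 0.000454). SPO13, which like SPO12 is needed for a normal pair of meiotic divisions, had 3.76 and 3.44 FPKM in the wild-type libraries against 6.16 and 5.65 in the deletion libraries (log2 difference 0.59, adjusted p = 0.0529), and was called under 3 of the 14 alternatives. The meiotic cohesin gene REC8 averaged 1.82 and 2.92 FPKM and did not pass. IME2, a kinase gene of meiotic entry, averaged 11.0 and 9.96 FPKM, and NDT80, the activator of middle sporulation genes, 24.6 and 28.4.

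SPO12 belongs to the CLB2 cluster, mitotic genes that peak together in G2 and M under Mcm1 and forkhead factors. Of 16 other cluster genes 0 passed, beside 9.54% of all tested genes called in either direction (limma). Before adjustment 2 were higher and 2 lower at p under 0.05, beside 30.2% of all tested genes in either direction. The median log2 difference of the 16 was 0.09. The cyclin gene CLB2 had 44.7 and 43.6 FPKM in the wild-type libraries against 45.0 in each deletion library (log2 difference 0.03, adjusted p = 0.759). The myosin gene MYO1 averaged 8.2 and 9.2 FPKM, and the spindle midzone gene ASE1 had the smallest adjusted p of the list, 0.0584, with 16.3 and 20.4 FPKM, and was called under 1 alternative. RNA came from whole cultures, so a change in the share of cells at a cell-cycle stage and a change in RNA per cell cannot be told apart.

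**Figure D3:**
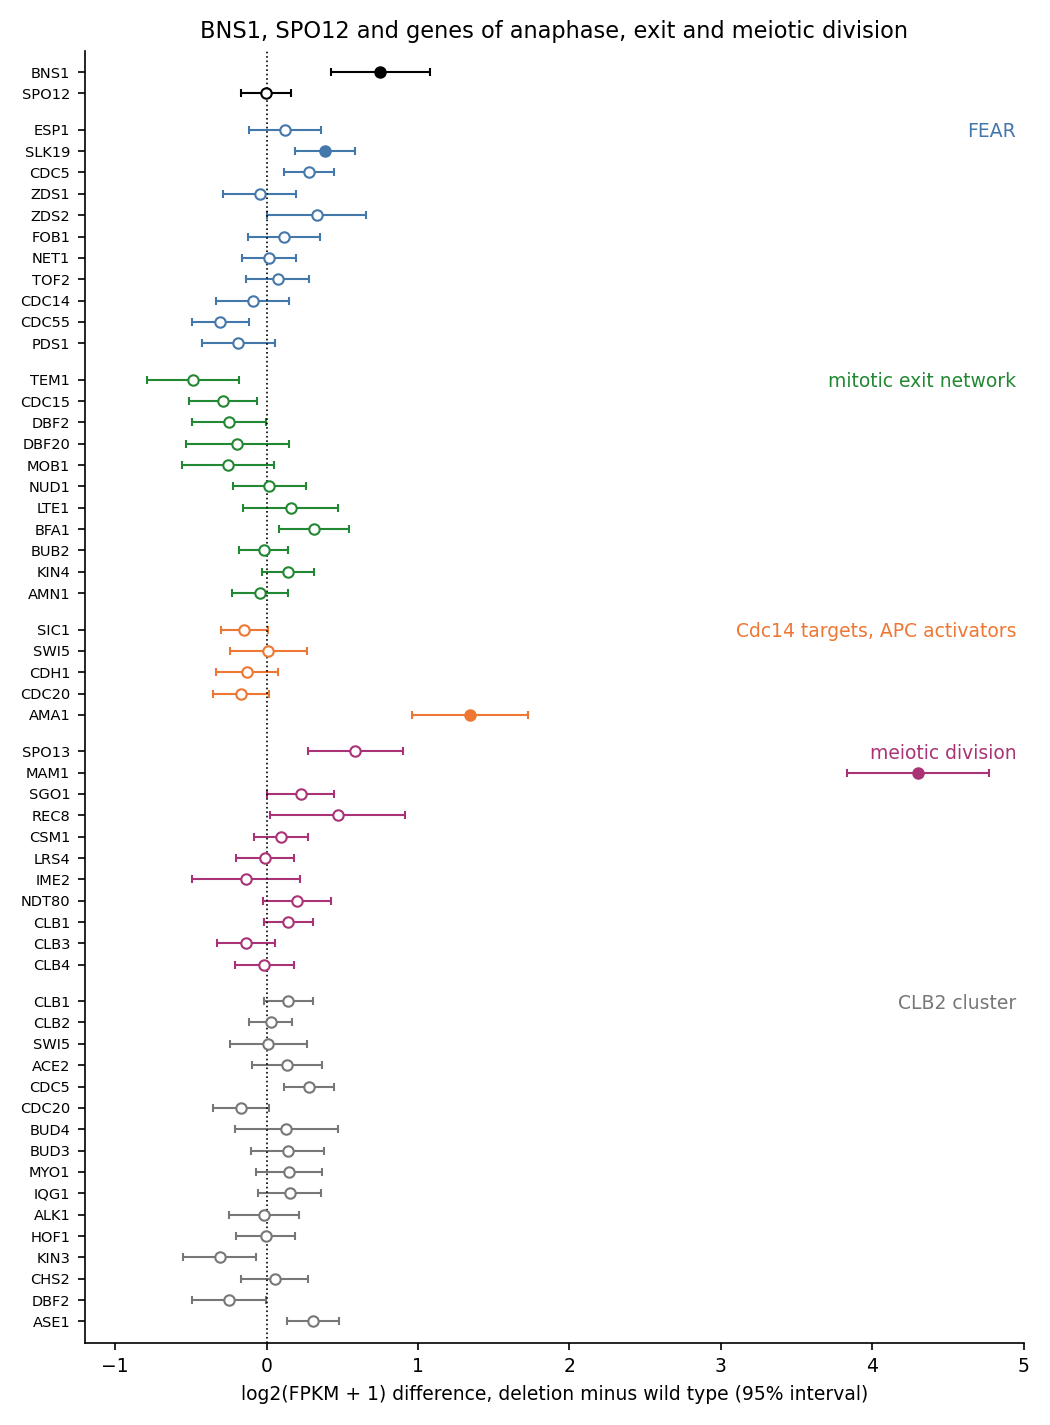
Difference in log2(FPKM + 1), deletion minus wild type, with its 95% limma interval for BNS1, SPO12 and the genes of each list, filled where the adjusted p is under 0.05 (CLB1, SWI5, CDC5, CDC20 and DBF2 appear in more than 1 list). BNS1, SLK19, AMA1 and MAM1 are filled and lie above 0, and MAM1 lies farthest out at 4.30.

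BNS1 differed from most middle sporulation genes in its level in wild-type cells. Of 48 such genes tested, 39 were higher and 0 lower (limma), beside 6.75% and 2.79% of all tested genes. Before adjustment 42 were higher and 0 lower at p under 0.05, beside 30.2% of all tested genes in either direction. The median log2 difference of the 48 was 1.98. AMA1, NDT80, CLB1, CLB3 and CLB4 are among the 48 and were also counted in lists above. The 48 were listed with earlier results of these data known, so the count is a description. BNS1 had a higher wild-type level than 46 of the 48, whose median was 5.37 FPKM, and 36 of the 48 rose further than BNS1. On the log2(FPKM + 1) scale the largest rises among them were in LDS1, a spore lipid droplet gene (1.18 to 95.3 FPKM on average), the prospore membrane gene PFS1 (0.774 to 74.4), the chitin deacetylase gene CDA2 (0.119 to 38.3) and the sporulation gene SPR2 (0.81 to 61.8). The rise of BNS1 was closest in size to those of SMK1, a kinase gene of spore wall formation (log2 difference 0.77, limma adjusted p = 0.0266), CLB5, an S-phase cyclin gene (0.79, adjusted p = 0.00551), and OSW2, a spore wall gene (0.71, adjusted p = 0.0101), which were named after their values were seen. Without deletion replicate 1 or 2 SMK1 (adjusted p = 0.1 and 0.109) and OSW2 (0.0645 and 0.0537) lost the call. SPO12 had a higher wild-type level than all 48, and 46 of them had a larger log2 difference.

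**Figure D4:**
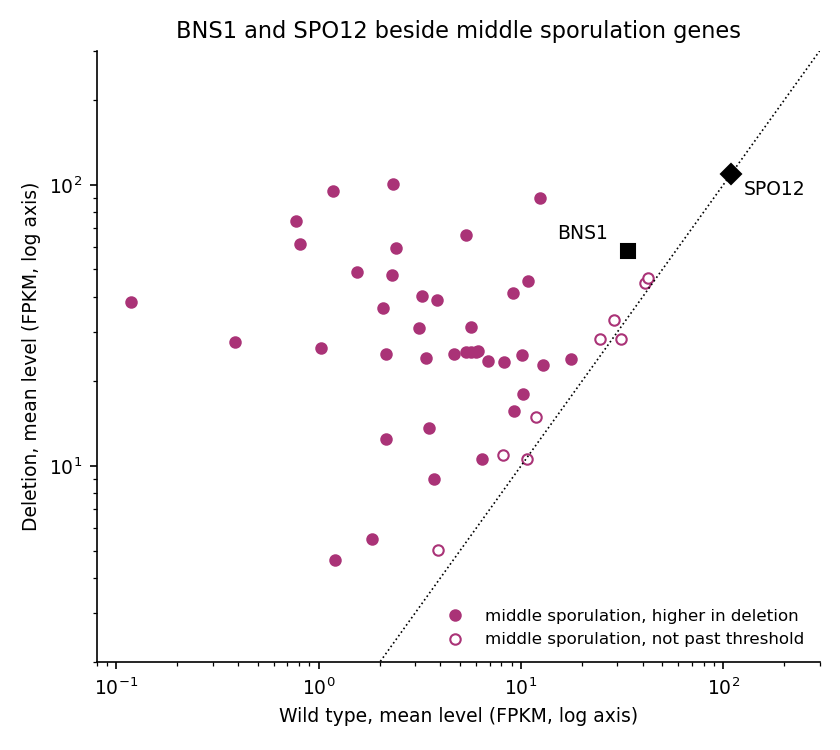
Mean FPKM in wild type (x, log axis) against the deletion strain (y, log axis) for 48 middle sporulation genes, BNS1 (square) and SPO12 (diamond), with equal levels on the dotted line. BNS1 sits at 33.9 and 58.1 FPKM, to the right of 46 of the 48 genes and above the line, and SPO12 sits on it at 109.

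The genes beside BNS1 did not pass. SMI1, a cell wall synthesis regulator gene that is divergent from BNS1 across 994 bases, averaged 126 and 134 FPKM in wild type and deletion (log2 difference 0.09, limma adjusted p = 0.315). PHB2, a prohibitin gene that converges on BNS1 and ends 240 bases from it, averaged 84.7 and 74.8 FPKM (-0.18, adjusted p = 0.113). NAS6, a proteasome assembly chaperone gene, averaged 94.4 and 91.8 FPKM (-0.04). OTO1, the next gene beyond SMI1, was not analysed here.

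Beside SPO12, MTC6, named for maintenance of telomere capping (31.6 and 31.2 FPKM on average) and the peroxisomal gene PEX28 (12.6 and 13.3) did not pass. SPO16, a meiotic synapsis gene that converges on SPO12 and ends 130 bases from it, had 11.5 and 9.49 FPKM in the wild-type libraries against 8.39 and 8.9 in the deletion libraries (log2 difference -0.25, limma adjusted p = 0.231). The strand setting of the authors' counting is not given in the sources used here, so reads running past the ends of these convergent genes could not be assigned by strand. RTT107, a DNA repair scaffold gene beyond SPO16, rose from 11.98 and 12.4 FPKM to 19.0 and 19.3 (log2 difference 0.61, limma adjusted p = 0.0102), and lost the call without deletion replicate 1 (adjusted p = 0.062) or 2 (0.0655).

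Likeness was measured as the Euclidean distance between log2(FPKM + 1) values over the 4 libraries, so it reflects level and genotype together. The nearest genes to BNS1 were YDL172C, a name not in R64 (distance 0.24), DPC7 (0.25) and IRC4 (0.27). YDL172C had 33.2 and 34.8 FPKM in the wild-type libraries against 57.3 and 57.5 in the deletion libraries (log2 difference 0.74, limma adjusted p = 0.00345). IRC4 also passed, with a log2 difference of 0.55 (adjusted p = 0.0396), whereas DPC7 did not (0.51, adjusted p = 0.0792). IRC4 was called under 8 of the 14 alternatives and lost the call without wild-type replicate 1 (adjusted p = 0.0869) and without deletion replicate 1 (0.118) or 2 (0.0884). The nearest genes to SPO12 were CRS1, a cysteinyl-tRNA synthetase gene (distance 0.025), IES5, a subunit gene of the INO80 chromatin remodeller (0.075), and the protein kinase gene YPK1 (0.084). CRS1 stood at 105, 111, 111 and 107 FPKM in wild-type replicates 1 and 2 and deletion replicates 1 and 2, within 2 FPKM of SPO12 in each library. The paralogs were 2.68 apart by this measure, and 2975 of 6369 genes were closer to BNS1 than SPO12 was.

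**Figure D5:**
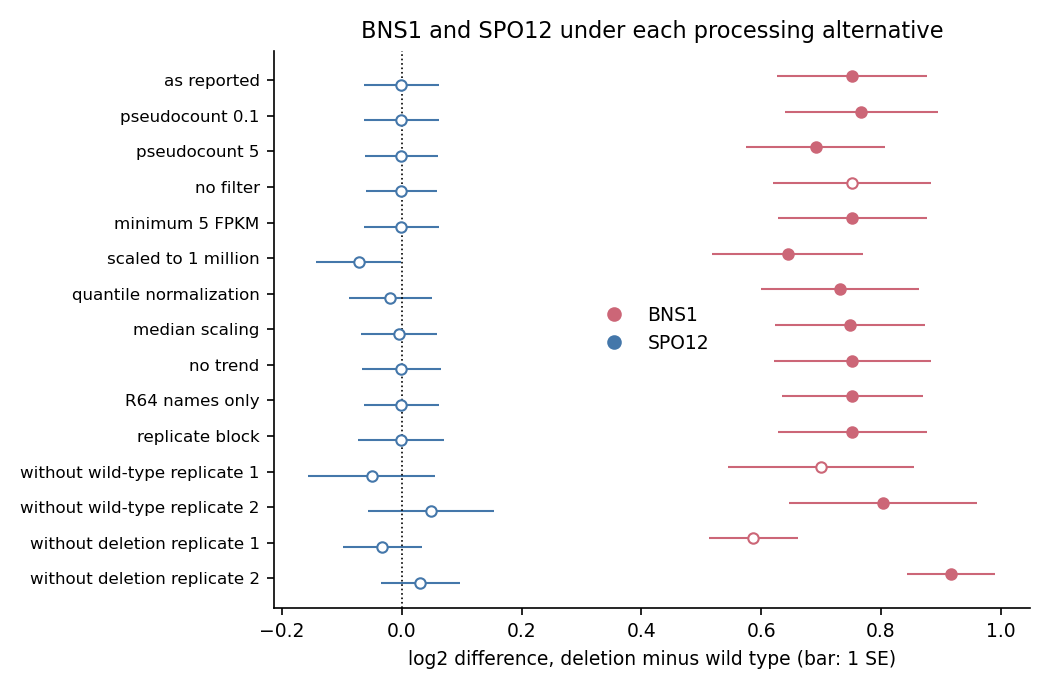
Difference in log2 level, deletion minus wild type, with 1 SE for BNS1 and SPO12 in the reported fit and under each of 14 alternatives, filled where the adjusted p is under 0.05. BNS1 lies between 0.59 and 0.92 and is unfilled under 3 alternatives, and SPO12 lies between -0.072 and 0.048 and is unfilled throughout.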

How the data were processed

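RNA of 4 libraries, 2 per genotype, was sequenced. The authors deposited 1 FPKM value per open reading frame and library, made with TopHat2 2.0.10 and Cuffnorm 2.2.1 according to the submitters' processing notes. What build, annotation, scaling, strand setting and rule for multiply mapped reads they used is not given in the sources used here. Of 6690 names, 6007 matched a locus tag of R64, which served for symbols, neighbours, upstream and coding sequence only.

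The filter, 1 FPKM or more in 2 or more libraries, kept 6370 genes, both members included, and dropped 320. Genotypes were compared on log2(FPKM + 1) by limma (version 3.58.1, R version 4.3.3) with eBayes and a mean-variance trend, without covariates, and p-values were adjusted by Benjamini-Hochberg. On this scale the change of low genes is understated. Folds are ratios of mean FPKM. FPKM steps gave relative depth (within 0.01 in log2 for 17.9% to 26.6% of low genes), too few to recover whole reads, so no count test was run. Sequences were compared with Biopython 1.88 and blastn 2.17.0.

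The members and lists were chosen with earlier results of these data known. Genes were named as the members, their 2 neighbours on each side, the 3 most alike genes, the called genes of each list (4 at most) and genes that explain the pathway. REC8, TEM1, CDC15, BFA1, CDC55, IME2, SPO13, CDC20, CDH1, SIC1, CLB2, MYO1, ASE1, SMK1, CLB5 and OSW2 fall outside this rule and were named with their values seen. Alternatives were other pseudocounts, filters, scalings, no trend, R64 names only, a replicate block, and fits without each library in turn, in which a single remaining library is taken to have the spread of the other genotype.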

Additional observations from a re-analysis of the deposited data

How the results depend on the processing

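BNS1 was higher in the deletion strain under all 14 alternatives and was called under 11. The call was lost with no filter on low values (log2 difference 0.75, limma adjusted p = 0.0557) and in 2 of the 4 fits that left out a library, which ranged from 0.59 to 0.92. With a replicate block and without the trend the log2 difference was 0.75 (limma adjusted p = 0.0498 and 0.0499), both close to the threshold. SPO12 was called under none of the 14 (adjusted p from 0.504 to 0.996). The difference in the log2 ratio of BNS1 to SPO12 lay between 0.62 and 0.89, both ends from fits without 1 deletion library. Genes called higher numbered 184 to 377 with 1 library left out. Genes called lower numbered 47 to 83 with 1 library left out, 505 after scaling each library to the same FPKM sum, 294 after quantile normalization, 297 with R64 names only and 111 with the replicate block. The block also gave 360 genes higher; the deviations of same-numbered libraries correlated at -0.094 across genes, so the numbers were not read as pairs. With 2 technical libraries per genotype and no read totals, neither culture-to-culture spread nor counting error of BNS1 could be measured. The cause of these shifts was not tested.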
